A study of Mus musculus with 6 samples.

Results

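Transcripts of the Notch pathway were examined in single cells sorted from the Achilles tendon of Gli1-CreERT2; Ai9 mice. The 10 genes followed were the receptors Notch1, Notch2, Notch3 and Notch4, the ligands Jag1, Jag2 and Dll4, and the target genes Hes1, Hey1 and Heyl. They were chosen by name as these parts of the pathway, and all 10 were among the 33696 genes of the count matrices. In these mice tamoxifen switches on a Cre recombinase made from the Gli1 promoter, which turns on the red reporter of the Ai9 allele for good. Gli1+ cells are therefore meant to be cells in which that promoter was active at the time of tamoxifen, together with their progeny, and Gli1- cells are the remaining cells of the same sort. Every group carried both alleles and had received tamoxifen, and the injured groups had a tenotomy (the Achilles tendon was cut), which in this model leads to heterotopic ossification, the formation of bone in soft tissue. Tendons were taken uninjured, 7 days post injury (7 dpi) and 21 dpi, and each of the 6 combinations of sort and time was 1 library from pooled mice, 8 per time point and 24 in all. The labels state an equal distribution of the sexes and give neither age nor background strain.

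The libraries held 8236 to 16437 barcodes, of which 7057 to 10882 were kept as cells, with a median of 4297 to 9775 UMIs (unique molecular identifiers, each standing for 1 captured transcript) per cell. The Gli1- uninjured library was the shallowest. Pairs of libraries shared 15 to 32 cell barcodes, at most 0.354% of the smaller library. The sexes were not mixed alike. Xist, which is transcribed from the inactive X chromosome of female cells, stood at 424, 0.0220, then 654 CPM (counts per 1000000 UMIs) among Gli1+ cells and at 0.0373, 0.0463, then 672 CPM among Gli1- cells, in the order uninjured, 7 dpi, 21 dpi that every such run of 3 values follows. The Gli1- uninjured and 7 dpi libraries were alike in this, with 4 Y-linked genes at a summed 253 and 173 CPM. In every other pair of times within a sort, time and the sex of the cells cannot be told apart, and the uninjured sorts did not hold the same mix of mice.

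Notch signaling passes between touching cells. A ligand of the Jagged or Delta-like family on the sending cell binds a Notch receptor on its neighbor, the receptor is cut, and its intracellular part enters the nucleus, where it joins the DNA-binding protein RBPJ and switches on genes of the Hes and Hey families, which encode transcriptional repressors. The pathway is known for the assembly of blood vessels and their walls, for the balance between division and differentiation in epidermis, and for the control of progenitor cells in the skeleton.

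The sequence just before the transcription start is shown for 4 members, Notch3, Notch4 and Dll4, whose levels set a single cell type apart below, and Jag1, the ligand with higher values at 7 dpi in mesenchymal-like cells. Each line holds the 250 bases upstream of the start, 5′ to 3′ on the strand of the gene, from RefSeq annotation of GRCm38.p6, and capitals mark the letters CACGCG on either strand, a site that HES repressors can bind.
Notch3 (chr17:32166891-32167140, minus strand): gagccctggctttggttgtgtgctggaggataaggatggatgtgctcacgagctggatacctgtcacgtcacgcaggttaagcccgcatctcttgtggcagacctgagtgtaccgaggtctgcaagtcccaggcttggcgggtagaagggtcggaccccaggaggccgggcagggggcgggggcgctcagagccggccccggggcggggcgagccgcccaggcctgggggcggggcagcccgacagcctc
Notch4 (chr17:34564045-34564294, plus strand): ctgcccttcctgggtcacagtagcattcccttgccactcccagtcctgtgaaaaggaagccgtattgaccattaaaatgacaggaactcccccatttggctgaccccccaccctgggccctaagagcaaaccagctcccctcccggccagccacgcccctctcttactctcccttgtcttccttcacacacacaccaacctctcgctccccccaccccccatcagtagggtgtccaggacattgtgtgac
Dll4 (chr2:119325534-119325783, plus strand): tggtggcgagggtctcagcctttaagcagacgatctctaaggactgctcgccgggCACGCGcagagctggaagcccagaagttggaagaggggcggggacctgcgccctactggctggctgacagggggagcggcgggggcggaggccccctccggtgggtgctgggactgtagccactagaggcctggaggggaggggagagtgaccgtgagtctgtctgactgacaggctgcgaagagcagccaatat
Jag1 (chr2:137116521-137116770, minus strand): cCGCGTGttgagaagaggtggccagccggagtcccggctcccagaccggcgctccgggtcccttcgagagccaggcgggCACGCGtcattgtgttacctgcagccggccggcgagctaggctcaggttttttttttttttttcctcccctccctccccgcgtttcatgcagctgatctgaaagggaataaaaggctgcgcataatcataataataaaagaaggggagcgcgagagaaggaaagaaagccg
The table of promoters held 7 of the 10 members and none of the 3 targets. CACGCG was found in 3 of these 7 windows, against 7.62% of 32851 mouse promoter windows of the same length. The 7 windows were 57.2 to 87.2% G and C, above the median of 52.4% over all promoters, so the share of all windows is not matched in base composition. In Dll4 it began 195 bases before the start, in Jag1 it occurred 249 and 171 bases before the start, and in Notch2 42 bases before the start. TGGGAA, a core of the RBPJ site, was in 0 of the 7 windows and in 21.6% of all windows, and CCGGAA, a form of the ETS site used by many endothelial genes, was in 0 of the 7 and in 12% of all. These counts cover both strands and describe letters only.

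Cells were assigned to types by clustering and markers, with the Notch genes, the other pathway genes and the markers themselves left out of the genes used for clustering. Mesenchymal-like cells, with Col1a1 at 2809 to 18003 CPM and Pdgfra at 174 to 489 CPM, made up 67.7% of 57767 cells. Blood endothelial-like cells made up 9.65% and mural-like cells, the pericytes and smooth muscle cells of vessel walls, 5.63%. Basal and suprabasal epidermal-like cells, Schwann-like cells and lymphatic endothelial-like cells were fewer, and T cell-like, NK or innate lymphoid-like and myeloid-like cells were kept in the Gli1+ uninjured library only. A type was described in a library where it held at least 50 cells. Values are CPM over the summed cells of a type, whose UMIs came from the 3′ end of transcripts, so a level is compared between cells for the same gene and never between genes.

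Notch3 set mural-like cells apart. These cells held 3.81% of all UMIs and 66.2% of those of Notch3, and their level was 937, 478, then 488 CPM in the Gli1+ sort against 642, 646, then 514 CPM in the Gli1- sort. No library of another named type reached these values, the next being blood endothelial-like cells at 5.17 to 71.4 CPM and suprabasal epidermal-like cells at 34.6 and 43.0 CPM. After every cell was thinned to 2000 UMIs, 56.2 to 76.9% of mural-like cells held a Notch3 UMI (71.8 to 93.9% before thinning, at a median of 2777 to 7099 UMIs per cell). The share in T cell-like cells, taken as background, was 0.203% (0.604% before thinning, at a median of 7709 UMIs).

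Notch4, the receptor best known from endothelium, was set apart in the same way in blood endothelial-like cells, at 53.5, 33.6, then 35.7 CPM for Gli1+ against 73.4, 43.1, then 40.6 CPM for Gli1-. Mural-like cells followed at 1.48 to 24.5 CPM and mesenchymal-like cells lay at 0.757 to 2.82 CPM, so the 6 endothelial values overlapped with no other type. The receptor Notch1 was spread more widely. It reached 105 to 249 CPM in blood endothelial-like cells (median 139), 89.2 to 210 CPM in basal epidermal-like cells (median 133) and 154 and 159 CPM in lymphatic endothelial-like cells, ranges that overlapped. Mesenchymal-like cells were lowest of all 10 types, at 5.35 to 13.5 CPM with a median of 8.15, below every library of every other type. Notch2 was found in most types. Mesenchymal-like cells carried 83.2% of its UMIs and 76.2% of all UMIs, and held it at 146, 81.0, then 87.9 CPM for Gli1+ against 119, 75.2, then 89.2 CPM for Gli1-, and blood endothelial-like cells had the lowest median, 23.0 CPM, with a range of 13.9 to 40.4 CPM. Of the Gli1+ uninjured library, myeloid-like cells stood at 158 CPM and T cell-like cells at 85.0 CPM, and the ranges of Schwann-like (57.6 to 76.0 CPM), suprabasal epidermal-like (75.5 and 95.7 CPM), lymphatic endothelial-like (46.9 and 103 CPM) and mural-like cells (31.4 to 79.5 CPM) overlapped with that of mesenchymal-like cells.

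**Figure D1:**
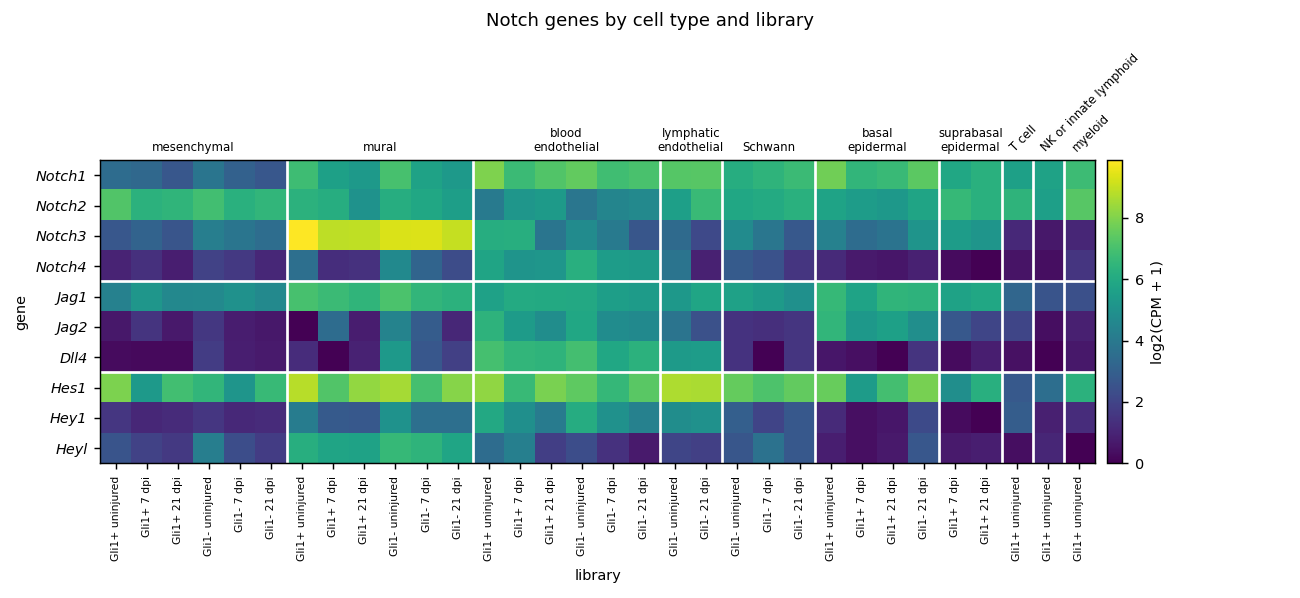
Level of each Notch gene, as log2(CPM + 1) of the summed cells, in each cell type (columns grouped by white lines) and library, with receptors, ligands and targets in the upper, middle and lower block of rows. Notch3 is brightest in the 6 mural columns (478 to 937 CPM), Dll4 in the 6 blood endothelial columns (57.8 to 123 CPM) and Notch1 is darkest in the 6 mesenchymal columns (5.35 to 13.5 CPM).

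Among the ligands, Dll4, which guides the tip and stalk cells of sprouting vessels, was mainly endothelial, with 75.3% of its UMIs in blood endothelial-like cells. It stood there at 123, 89.6, then 85.4 CPM for Gli1+ against 119, 57.8, then 80.3 CPM for Gli1-, above the 40.4 and 42.4 CPM of lymphatic endothelial-like cells and the 0.181 to 2.37 CPM of mesenchymal-like cells. Jag2 was shared by epidermis and endothelium. Basal epidermal-like cells held 40.5% of its UMIs at 28.7 to 89.7 CPM, blood endothelial-like cells held 33.3% at 24.9 to 83.1 CPM, and these ranges overlapped, whereas mesenchymal-like cells lay at 0.553 to 2.07 CPM. Jag1 was the most widely spread ligand. Its level was 126, 105, then 86.5 CPM in Gli1+ against 134, 90.2, then 80.2 CPM in Gli1- mural-like cells, 52.5 to 97.6 CPM in basal epidermal-like and 41.8 to 64.4 CPM in blood endothelial-like cells. Mesenchymal-like cells were lower, at 19.4 to 35.1 CPM, and contributed 63.0% of its UMIs, below their share of all UMIs.

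Of the targets, Hes1 was found most widely, at 389 and 401 CPM in lymphatic endothelial-like cells, 123 to 451 CPM in mural-like, 95.4 to 297 CPM in blood endothelial-like, 41.6 to 233 CPM in basal epidermal-like and 34.2 to 242 CPM in mesenchymal-like cells. The lymphatic values overlapped with those of mural-like cells and lay above the other 3 ranges, and these 3 overlapped with each other and with the mural range. T cell-like cells were low, at 5.80 CPM. Hey1 was concentrated in vessels, at 61.1, 29.4, then 16.0 CPM in Gli1+ against 68.9, 30.6, then 19.5 CPM in Gli1- blood endothelial-like cells and at 27.5 and 31.0 CPM in lymphatic endothelial-like cells, against 1.13 to 1.94 CPM in mesenchymal-like cells. Heyl followed Notch3 into the vessel wall, at 72.5, 53.3, then 50.3 CPM in Gli1+ against 96.4, 85.2, then 55.2 CPM in Gli1- mural-like cells, values that no other named type reached, since mesenchymal-like cells lay at 2.10 to 17.5 CPM and blood endothelial-like cells at 0.659 to 18.2 CPM.

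The types were compared with mesenchymal-like cells over the mouse pools, with the sorts summed and the pool as a block (edgeR's quasi-likelihood test, Benjamini-Hochberg adjusted over all genes). The p-values rest on 3 pools (2 for lymphatic endothelial-like and suprabasal epidermal-like cells), with a spread that the fit shares in part across genes. With 2 pools they rest almost wholly on that shared spread and not on the spread of the gene itself. The size of a p-value is therefore not to be compared between types, and the types were drawn from the same libraries. A pool here is a time point, and its uninjured block joined types that came from the sorts unequally, with 397 Gli1+ against 2549 Gli1- blood endothelial-like cells and with basal epidermal-like cells from the Gli1+ sort alone. In every pool, Schwann-like and lymphatic endothelial-like cells came from the Gli1- sort alone and suprabasal epidermal-like cells from the Gli1+ sort alone. The mesenchymal-like cells of a pool joined both sorts, so for these types the sort was not separated from the type. In mural-like cells 9 of the 10 members passed, 8 higher and 1 lower, where 20.5% of 17399 genes passed. Notch3 was higher by a log2 fold change of 5.64 ± 0.19 (SE, adjusted p = 0.000601), Heyl by 3.77 ± 0.44 (adjusted p = 0.00797), Notch1 by 2.73 ± 0.17 (adjusted p = 0.0018) and Jag1 by 1.75 ± 0.22 (adjusted p = 0.00875). The vessel wall thus held a receptor, a ligand and a target of the pathway above the level of the surrounding mesenchyme. Hes1 was higher by 1.30 ± 0.17 (adjusted p = 0.00875), Hey1 by 3.08 ± 0.28 (adjusted p = 0.00433), Dll4 by 3.1 ± 0.48 (adjusted p = 0.0146) and Notch4 by 2.12 ± 0.42 (adjusted p = 0.0262), and Notch2 was lower, at −0.99 ± 0.18 (adjusted p = 0.0208). Jag2 had a log2 fold change of 2.19 ± 0.58 and did not pass (adjusted p = 0.0593).

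Several members in mural-like cells moved with a cluster that carried endothelial markers. In the Gli1- sort, mural cluster 10 (934 cells, with Kcnj8 and Abcc9 among its leading genes) carried the 8 blood endothelial markers at a summed 2427 to 3305 CPM, against 301 to 697 CPM in the other mural clusters. It also carried the mural markers at a summed 8198 to 11448 CPM, against 6243 to 9685 CPM in those clusters. Of the 914 Gli1- uninjured mural-like cells, 670 were in cluster 10. Without it, Dll4 in Gli1- uninjured mural-like cells went from 39.2 to 5.51 CPM and Notch4 from 24.5 to 6.29 CPM, and Jag2 (20.3 to 3.93 CPM), Hey1 (31.8 to 10.2 CPM), Notch1 (126 to 62.2 CPM) and Heyl (96.4 to 55.9 CPM) were lower too, whereas Hes1 went from 367 to 568 CPM, Notch2 from 71.0 to 134 CPM and Notch3 from 642 to 769 CPM. Over the pools, Dll4 then had a log2 fold change of 1.07 (adjusted p = 0.145), Notch4 of 1.11 (adjusted p = 0.13) and Notch2 of −0.76 (adjusted p = 0.0624), and none of these passed, whereas the other 6 called members still did. Leaving out the 7 dpi pool left 4 calls in mural-like cells, and Hes1, Heyl, Dll4, Notch4 and Notch2 were then not called. Without the pool as a block 5 were called, and Hes1, Dll4, Notch4 and Notch2 were not.

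Blood endothelial-like cells differed at 6 of the 10 members, where 32.4% of 17248 genes passed. Dll4 was higher by a log2 fold change of 6.70 ± 0.32 (adjusted p = 0.000568), and Jag2 by 4.95 ± 0.28, Notch4 by 4.74 ± 0.27, Hey1 by 4.33 ± 0.35 and Notch1 by 3.92 ± 0.24. Notch2 was lower, at −2.42 ± 0.32 (adjusted p = 0.00487). Endothelium thus had another set of receptors than mesenchyme, with Notch1 and Notch4 higher and Notch2 lower. Hes1 (0.60, adjusted p = 0.0933), Jag1 (0.74, adjusted p = 0.0679), Notch3 (0.60, adjusted p = 0.293) and Heyl (−0.94, adjusted p = 0.11) did not pass. In lymphatic endothelial-like cells 5 members passed, all higher, where 19.8% of 16576 genes passed, and these were Dll4 (5.37 ± 0.49), Notch1 (3.91 ± 0.40), Hey1 (3.84 ± 0.50), Jag2 (2.68 ± 0.91, adjusted p = 0.0187) and Hes1 (1.27 ± 0.42, adjusted p = 0.0146). Without the pool as a block Jag2 (adjusted p = 0.13) and Hes1 (adjusted p = 0.0945) did not pass.

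In basal epidermal-like cells 5 members passed, where 39.4% of 17347 genes passed, a share close to that of the members. Jag2 was higher by 5.67 ± 0.32 on the log2 scale and Notch1 by 3.89 ± 0.22 (adjusted p = 0.0066 for both), Jag1 was higher by 1.51 ± 0.29 (adjusted p = 0.0215), and Notch2 (−1.18 ± 0.19, adjusted p = 0.0154) and Heyl (−2.74 ± 0.73, adjusted p = 0.0447) were lower. Without the 21 dpi pool edgeR called 0 of these (adjusted p from 0.0732 to 0.14), although 5 members had an unadjusted p under 0.05, and Heyl, which lay at 0.318 to 5.39 CPM in basal epidermal-like cells, was not called under 6 settings in all. Suprabasal epidermal-like cells, the layers above, had 4 members higher, where 35.6% of 18742 genes passed, and these were Notch1 (3.56 ± 0.30), Jag2 (2.57 ± 0.72, adjusted p = 0.00156), Notch3 (2.30 ± 0.31) and Jag1 (1.17 ± 0.28, adjusted p = 0.000111). With types set from the markers of single cells, Jag2 was not called there (adjusted p = 0.0526). In Schwann-like cells, the glia of peripheral nerve, 2 members passed, where 27.5% of 16566 genes passed, Notch1 being higher (2.87 ± 0.29) and Notch2 lower (−1.07 ± 0.28, adjusted p = 0.00197). Notch1 was thus higher than in mesenchymal-like cells in all 6 types tested.

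**Figure D2:**
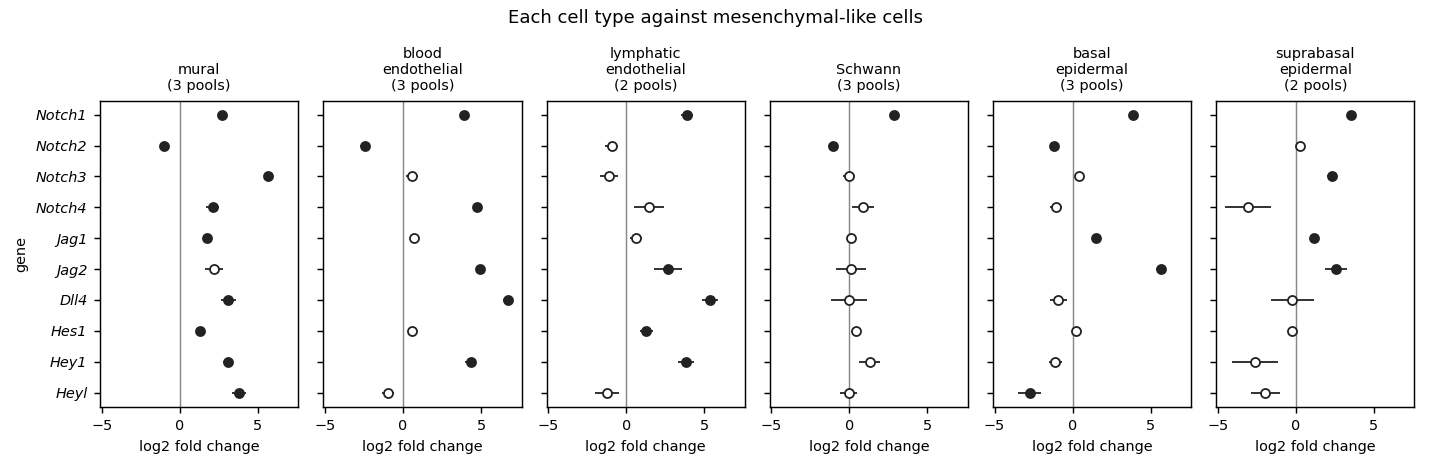
Log2 fold change of each Notch gene in 6 cell types against mesenchymal-like cells, with the SE of the edgeR quasi-likelihood fit as bars and filled points for an adjusted p under 0.05. Notch1 is filled to the right in every panel, and Notch3 has its largest value in mural-like cells (5.64), Dll4 in blood endothelial-like cells (6.70) and Jag2 in basal epidermal-like cells (5.67).

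Within blood endothelial-like cells of the Gli1- sort the members separated the vessel kinds. Cluster 2, led by Timp4, Gpihbp1, Cd36 and Sox17, genes of capillary and arterial endothelium, held Dll4 at 131, 105, then 136 CPM over the 3 times, Hey1 at 76.2, 62.3 and 81.2 CPM and Jag2 at 62.4, 51.0 and 81.2 CPM. Cluster 9, led by Selp, Sele and Ackr1, genes of venules that admit leukocytes, held Dll4 at 7.21, 31.0 and 72.3 CPM, Hey1 at 0, 12.7 and 10.5 CPM and Jag2 at 15.6, 13.6 and 16.7 CPM. Hey1 and Jag2 were thus lower in cluster 9 at every time, with count intervals that did not overlap. The share of these clusters changed with time, from 2443 cells of cluster 2 and 106 of cluster 9 in uninjured tendon to 576 and 261 at 7 dpi and 497 and 841 at 21 dpi.

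The other 47 genes of the pathway on a fixed list (further ligands, glycosyltransferases, proteases that cut the receptor, the nuclear complex, regulators of turnover and further targets) were tested in the same fits. In mural-like cells 5 of the 43 tested were higher and 3 lower, with a median log2 fold change of 0.05 against −0.04 for all genes. The called genes with the largest changes were Nrarp, a feedback inhibitor that Notch itself induces (5.18 ± 0.20, adjusted p = 0.000744), Hey2, a further Hey gene (4.18 ± 0.41), and Neurl1b, a ubiquitin ligase that acts on ligands (3.77 ± 0.19). In blood endothelial-like cells 10 of 43 were higher and 8 lower (median −0.05, all genes −0.09), with Mfng, which adds sugars to the receptor, at 6.88 ± 0.59 and Nrarp at 4.73 ± 0.37. Dlk1, a ligand-like protein that lacks the part needed to activate Notch, was lower there, at −3.72 ± 0.47 (adjusted p = 0.00407).

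In lymphatic endothelial-like cells 8 of 42 pathway genes were higher and 7 lower (median −0.08, all genes −0.22). Dtx1, a ubiquitin ligase that binds Notch, was at 148 and 251 CPM there and reached a log2 fold change of 8.35 ± 0.50. Its relative Dtx4, at 15.2 CPM in the matching mesenchymal-like cells, and Dlk1, at 5.86 CPM, had 0 UMIs in both libraries. Against a floor of 3 counts over both libraries, or 1.72 CPM, this is at least 8.86-fold lower for Dtx4 and at least 3.42-fold lower for Dlk1. Schwann-like cells had 5 of 41 higher and 6 lower (median −0.06, all genes −0.18), with Dlk1 at −4.30 ± 0.76 and Numbl, of the Numb family of Notch inhibitors, at −1.46 ± 0.29, and Dtx4 at −1.38 ± 0.39. Basal epidermal-like cells had 9 of 42 higher and 10 lower (median 0.05, all genes −0.09), led by Dlk2, the relative of Dlk1, at 5.26 ± 0.39, by Dlk1 at −5.16 ± 0.85 and by Nrarp at 4.40 ± 0.43. Suprabasal epidermal-like cells had 7 of 43 higher and 11 lower (median −0.06, all genes −0.28), with Nrarp at 5.68 ± 0.34 and Psen2, a catalytic part of the protease that frees the intracellular part of Notch, at −3.40 ± 0.44, and Dlk1 at −3.29 ± 0.80. These counts are to be read against the share of all genes that passed in each type, given above.

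The main comparison of the study, between times after injury, has 1 library per sort and time, and times were not tested here. Ratios are given with exact 95% binomial intervals that cover counting error only, and a ratio of at least 1 on the log2 scale, in genes with at least 5 CPM and 20 UMIs over both libraries, was counted as past the fold. Of the members tested, Hes1 had the ratio of the largest size in Gli1+ cells at both times. In mesenchymal-like cells it stood at 242, 39.3, then 118 CPM for Gli1+ against 89.3, 34.2, then 100 CPM for Gli1-. Both sorts were lowest at 7 dpi. The log2 ratio of 7 dpi over uninjured was −2.62 (−2.69 to −2.56) for Gli1+, against −1.39 (−1.46 to −1.32) for Gli1-. At 21 dpi the Gli1+ ratio was −1.03 (−1.08 to −0.98), against 0.17 (0.11 to 0.23) for Gli1-. The Gli1- pair at 7 dpi is the one in which both libraries had Xist near 0. At 7 dpi only 1.63% of genes in Gli1+ and 6.06% in Gli1- mesenchymal-like cells had a ratio as low as Hes1, whereas at 21 dpi 10.3% and 64.4% did.

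Of the members over the minimum, Hes1 was the only one past the fold in Gli1+ mesenchymal-like cells, 1 of 5 tested at 7 dpi, where 25.5% of 10820 genes were past it, and 1 of 5 at 21 dpi, where 17.2% of 10530 genes were. Among Gli1- cells Hes1 and Heyl were past it at 7 dpi, 2 of 6 where 22.2% of 10612 genes were, and Notch1 and Heyl at 21 dpi, 2 of 6 where 20.3% of 10535 genes were. Heyl was over the minimum in the Gli1- sort through its uninjured level alone (17.5 CPM), and in the Gli1+ sort, at 4.89 CPM uninjured, it was under it and its 21 dpi ratio of −1.22 was not counted. With 5 or 6 members tested, these counts are not set apart from the shares of all genes. Under TMM scaling, which moved the median by 0.30 and 0.46 at the 2 times in Gli1+ and by 0.10 and 0.18 in Gli1- mesenchymal-like cells (log2), the Hes1 ratios became −2.32, −0.57, −1.28 and 0.34, and Gli1+ cells at 21 dpi were then not past the fold. The summed level of 8 immediate-early and heat shock genes, which respond to handling of tissue, was also lower at 7 dpi in mesenchymal-like cells, at 26675, 11773, then 15215 CPM for Gli1+ against 31297, 12588, then 13599 CPM for Gli1-. Both this sum and Hes1 were thus lower at 7 dpi than in uninjured tendon in both sorts. Both were higher at 21 dpi than at 7 dpi, the sum by a smaller factor. The part of these genes in the result was not tested.

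The 7 dpi low of Hes1 was also seen outside the mesenchyme. Mural-like cells went from 451 to 144 and then 308 CPM in the Gli1+ and from 367 to 123 and then 268 CPM in the Gli1- sort. Blood endothelial-like cells went from 297 to 101 and 234 CPM and from 172 to 95.4 and 164 CPM, and Gli1+ basal epidermal-like cells from 192 to 41.6 and 120 CPM. In all 8 pairs of type and sort that could be compared, the interval of the 7 dpi ratio lay below 0 for Hes1, with ratios from −2.62 to −0.42. Of the 7465 genes with at least 20 UMIs over both libraries in each of the 8 pairs, 2.24% did this. Of the 5 members among them only Hes1 did. The opposite, an interval above 0 in all 8, was seen for 4.82% of genes and for 0 members. An interval narrows with counts, and Hes1 had the most UMIs of the members (48732 over all cells). These shares of genes were not matched for counts. The pairs of a sort also came from the same libraries, so they do not repeat the result independently. The ratio nearest 0 was that of Gli1- Schwann-like cells (−0.42, −0.79 to −0.06), and 27.0% of genes there had a ratio as low, against 1.52 to 9.14% in the other pairs outside the mesenchyme. At 21 dpi the ratios lay between −1.03 and 0.17, with 5 of 9 intervals below 0 and 1 above.

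Within clusters of these types, the low at 7 dpi was seen in mural cluster 6 of the Gli1- sort, where Hes1 was at 568, 122 and 268 CPM, and in cluster 10, at 255, 129 and 281 CPM. Epidermal cluster 14 of the Gli1+ sort, led by Krt79, Krt17 and Lhx2, had 236, 98.1 and 228 CPM, above the 31.6 to 80.6 CPM of the other basal clusters at 7 and 21 dpi. Endothelial cluster 2 of the Gli1- sort had 182, 135 and 230 CPM, but cluster 9 had 72.1 CPM uninjured and 73.0 CPM at 7 dpi, a difference within counting error, and 154 CPM at 21 dpi.

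**Figure D3:**
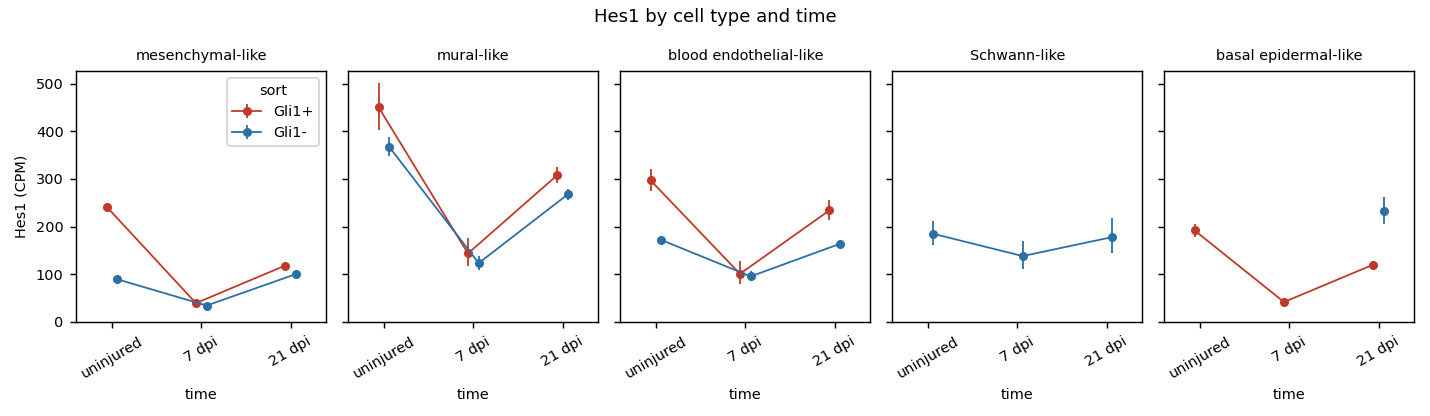
Hes1 level (CPM of the summed cells, linear axis from 0) by time in 5 cell types and both sorts, with exact 95% Poisson intervals of counting error as bars and 1 library per point. Every line that spans the 3 times is lowest at 7 dpi, from 34.2 CPM in Gli1- mesenchymal-like cells to 144 CPM in Gli1+ mural-like cells.

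Mesenchymal-like cells are a mixture whose makeup changed with time. In the Gli1+ sort clusters 4 and 5 held most of the uninjured cells (1409 and 688), clusters 0 and 3 those of 7 dpi (3189 and 2174) and clusters 1 and 2 those of 21 dpi (2968 and 2614), and in the Gli1- sort clusters 4 and 5 (2667 and 1365), clusters 1 and 3 (3706 and 2782) and cluster 0 (4759) did. By subtype, Hes1 in tendon stem cell-like cells was at 232, 60.5, then 136 CPM for Gli1+ against 93.1, 51.6, then 96.4 CPM for Gli1-. In tenocyte-like cells it was at 257, 66.4 and 129 CPM and at 138, 56.3 and 115 CPM, and in the other mesenchymal-like clusters at 239, 30.2 and 75.4 CPM and at 84.3, 33.3 and 58.8 CPM. The 7 dpi ratios were below 0 in all 6 pairs of subtype and sort, from −2.98 to −0.85. Hes1 and Notch2 were the members, 2 of 6, with an interval below 0 in all 6 pairs, which held for 4.77% of 10590 genes. This share was not matched for counts either, and the subtypes of a sort came from the same libraries. Within the single clusters that had cells both uninjured and at 7 dpi, Hes1 was lower at 7 dpi in 7 of 7, with 6 intervals below 0 and ratios from −1.47 to −0.36, and 1 of these clusters was of the Gli1+ sort. At 21 dpi the ratios within single clusters went both ways, 6 of 10 being positive (median 0.12), with 2 intervals below 0, both of the Gli1+ sort, and 2 above.

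Jag1 went the other way at 7 dpi in mesenchymal-like cells. It was at 19.4, 35.1, then 23.4 CPM for Gli1+ against 23.9, 31.1, then 24.3 CPM for Gli1-, with 7 dpi ratios of 0.86 (0.71 to 1.003) and 0.38 (0.27 to 0.49). Neither was past the fold, although the first was under TMM scaling (1.16). Jag1 was the member, 1 of 6, whose interval lay above 0 in all 6 pairs of subtype and sort, with ratios from 0.56 to 1.43. This held for 4.64% of the 10590 genes, a share again not matched for counts. Its highest level was in Gli1- tendon stem cell-like cells, at 36.7, 91.3 and 46.4 CPM, whereas Gli1+ stem cell-like cells had 23.8, 37.1 and 28.7 CPM. Tenocyte-like cells had 8.78, 23.7, then 20.8 CPM for Gli1+ against 16.7, 31.4, then 27.9 CPM for Gli1-. There the intervals of 7 and 21 dpi overlapped in both sorts. The 21 dpi ratios over uninjured tendon were 1.24 (0.85 to 1.66) for Gli1+ and 0.74 (0.23 to 1.31) for Gli1- tenocyte-like cells. Within single clusters the 7 dpi ratio was positive in 6 of 7, but the interval lay above 0 in 2 of them. In Gli1+ mesenchymal-like cells at 7 dpi basal epidermal markers reached a summed 930 CPM (10.2 to 119 CPM in the other libraries), 3.59% of their level in epidermal cells, a share that would carry 1.88 CPM of the 35.1 CPM of Jag1. In several other types Jag1 was lower at 7 dpi, with ratios of −0.89 (−1.08 to −0.71) in Gli1+ basal epidermal-like, −0.57 (−0.81 to −0.33) in Gli1- mural-like and −0.42 (−0.68 to −0.16) in Gli1- blood endothelial-like cells. The whole Gli1- library went from 39.4 to 33.3 CPM, and the whole Gli1+ library from 21.8 to 39.0 CPM. Of the 7057 cells of the Gli1+ uninjured library, 2482 were T cell-like, 444 NK or innate lymphoid-like and 403 myeloid-like. These types, not kept in the other libraries, held Jag1 at 8.57, 4.96 and 4.37 CPM. The part of this makeup in the whole-library change was not tested.

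**Figure D4:**
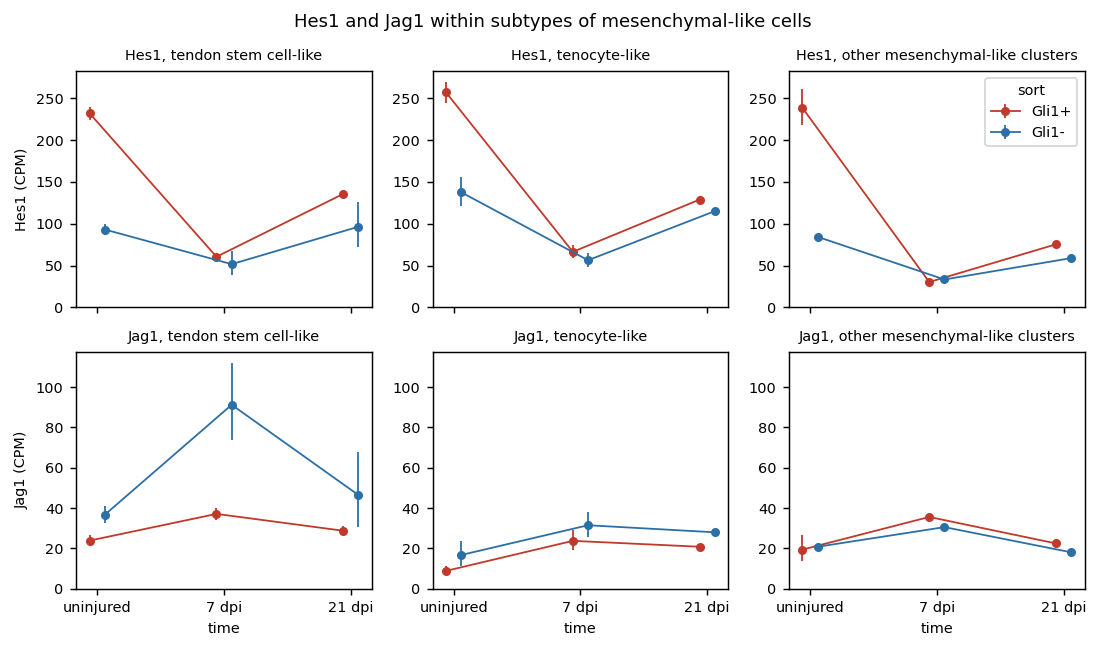
Hes1 (upper row) and Jag1 (lower row) in CPM by time within 3 subtypes of mesenchymal-like cells, with exact 95% Poisson intervals of counting error and 1 library per point and sort. By value, Hes1 is lowest at 7 dpi and Jag1 highest at 7 dpi in every panel and sort, Jag1 reaching 91.3 CPM in Gli1- tendon stem cell-like cells. In tenocyte-like cells the Jag1 intervals of 7 and 21 dpi overlap in both sorts.

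Of the receptors in mesenchymal-like cells, Notch2 was lower after injury, by ratios of −0.85 and −0.73 at 7 and 21 dpi in Gli1+ and −0.66 and −0.41 in Gli1- cells, none past the fold. Within the Gli1- subtypes its 7 dpi ratios were nearer 0, at −0.23 in tendon stem cell-like, −0.31 in tenocyte-like and −0.18 in the other mesenchymal-like clusters. At 21 dpi they were −0.27, −0.66 and 0.06, and the intervals of the first and last included 0. Notch1, already low, was at 10.3, 9.01, then 5.48 CPM in Gli1+ against 13.5, 7.30, then 5.35 CPM in Gli1- cells, and the ratio at 21 dpi in the latter was −1.33 (−1.52 to −1.14). Its Gli1+ 7 dpi ratios went opposite ways by subtype, with −2.09 (−2.41 to −1.74) in the other mesenchymal-like clusters, −0.64 (−1.05 to −0.24) in tendon stem cell-like and 0.82 (0.06 to 1.58) in tenocyte-like cells. Notch3 was at 5.45, 7.76, then 5.14 CPM in Gli1+ against 17.5, 13.4, then 10.5 CPM in Gli1- cells, so its 7 dpi ratio was 0.51 in the first and −0.39 in the second, and its 21 dpi ratio in the first (−0.08) changed sign under TMM scaling. The mural markers in these cells summed to 190 to 310 CPM, and in the Gli1- uninjured library their level, 2.89% of that in mural-like cells, would carry 18.6 CPM of Notch3, more than the 17.5 CPM seen. The same reckoning gave 23.5 and 24.3 CPM in the Gli1- sort at 7 and 21 dpi and 18.4, 19.3, then 20.3 CPM in the Gli1+ sort, each above the level seen. As it exceeded the level in all 6 libraries, it cannot apportion Notch3, and the part of mural RNA was not tested. Heyl was at 4.89, 2.86, then 2.10 CPM in Gli1+ against 17.5, 4.03, then 2.36 CPM in Gli1- cells. The 7 and 21 dpi ratios in the latter were −2.12 (−2.30 to −1.93) and −2.89 (−3.13 to −2.65). By subtype, the Gli1- 7 dpi ratio was −2.48 (−2.66 to −2.29) in the other mesenchymal-like clusters. It was −0.22 (−1.28 to 0.90) in tenocyte-like and −1.83 (−7.18 to 0.77) in tendon stem cell-like cells. At 21 dpi the tenocyte-like ratio was −2.01 (−2.87 to −1.05). The mural share would carry 2.79 CPM of the 17.5, but at 21 dpi 2.60 CPM against the 2.36 seen. It thus cannot apportion Heyl either, and the part of mural RNA was not tested. Gli1- uninjured cluster 4, led by Rtl4, Abca8b and Inmt, held Heyl at 27.8 CPM.

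Notch4, Jag2, Dll4 and Hey1 stayed at or below 2.82 CPM in mesenchymal-like cells of every library and were not counted. By subtype, Hey1 in tenocyte-like cells was at 1.54, 5.92, then 1.47 CPM for Gli1+ against 1.61, 4.86, then 1.19 CPM for Gli1-, from 3 to 57 UMIs a library. Its 7 dpi ratio there was 1.94 (0.82 to 3.17) for Gli1+ cells and 1.59 for Gli1- cells, whose interval included 0. Gli1+ tendon stem cell-like cells had a Hey1 ratio of −1.86 (−3.05 to −0.79). In the Gli1- uninjured library, where blood endothelial markers in these cells were at 2.47% of their endothelial level, that share would carry 2.94 CPM of Dll4 and 1.82 CPM of Notch4, against 2.37 and 2.82 CPM seen.

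In the other types, several members were lower after injury than before. Notch1 had 7 and 21 dpi ratios of −1.25 and −0.76 for Gli1+ against −0.67 and −0.46 for Gli1- blood endothelial-like cells, and of −1.24 and −1.06 for Gli1+ basal epidermal-like cells. In mural-like cells they were −1.24 and −1.53 for Gli1+ against −1.30 and −1.72 for Gli1-, and all of these intervals lay below 0. In Schwann-like cells the Notch1 ratios were 0.29 (−0.23 to 0.80) and 0.60 (0.08 to 1.11), and in lymphatic endothelial-like cells the 21 dpi ratio was 0.05 (−0.32 to 0.42). Jag2 had ratios of −0.98 and −1.57 for Gli1+ against −1.10 and −1.22 for Gli1- blood endothelial-like cells and of −1.24 and −0.91 for Gli1+ basal epidermal-like cells. The Notch1 ratios of Gli1- mural-like cells moved with mural cluster 10, which held 670 of 914 such cells in uninjured tendon and 90 of 1010 at 21 dpi. Without it Notch1 was at 62.2, 37.1, then 35.2 CPM and Jag2 at 3.93, 2.58, then 0.516 CPM. Notch3 at 21 dpi was lower in blood endothelial-like cells, with ratios of −2.37 and −2.35 in the sorts. Mural markers in blood endothelial-like cells summed to 329 to 1898 CPM over the libraries, and their part in this was not tested. In blood endothelial-like cells Hey1 went from 61.1 to 29.4 and 16.0 CPM in the Gli1+ sort, a 21 dpi ratio of −1.93 (−2.54 to −1.36), and from 68.9 to 30.6 and 19.5 CPM in the Gli1- sort, a ratio of −1.83 (−2.08 to −1.58). Notch2 was the member that was higher there, with 7 and 21 dpi ratios of 1.20 and 1.40 for Gli1+ against 0.65 and 0.82 for Gli1- cells. The Gli1+ ratios rest on 34, 25, then 78 UMIs. Mesenchymal markers in blood endothelial-like cells summed to 327 to 7900 CPM over the libraries, and their part in the Notch2 ratios was not tested. These Gli1- endothelial ratios of Hey1, Notch2 and Jag2 moved with the shift from cluster 2 to cluster 9 given above. Within cluster 2 Hey1 was at 76.2 and 81.2 CPM and Notch2 at 13.0 and 8.64 CPM uninjured and at 21 dpi. Hey1 and, by its values given earlier, Jag2 were thus not lower at 21 dpi within cluster 2.

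Of the other pathway genes in mesenchymal-like cells, 30 of 47 had at least 5 CPM in every library and 5 stayed under 1 CPM. At 7 dpi 1 was past the fold upward and 5 downward of 32 tested in Gli1+ cells (median ratio −0.45, all genes −0.11), and 1 and 3 of 32 in Gli1- cells (median −0.36, all genes −0.02). At 21 dpi 1 was higher and 2 lower of 31 in Gli1+ (median −0.35, all genes −0.22) and 2 higher and 2 lower of 32 in Gli1- cells (median −0.35, all genes −0.09). These counts lay below the shares of all genes past the fold given above (25.5, 22.2, 17.2 and 20.3%). Those past the fold in both sorts were Kat2b, an acetyltransferase of the Notch nuclear complex, and Hes6, a Hes gene whose product counters HES1. Kat2b went from 95.5 to 35.9 CPM at 7 dpi in Gli1+ and from 97.3 to 38.0 CPM in Gli1- cells (ratios −1.41 and −1.36). Hes6 went from 10 to 26.0 and 27.9 CPM in Gli1+ and from 10.5 to 22.5 and 23.7 CPM in Gli1- cells, ratios of 1.38 and 1.10 at 7 dpi and of 1.48 and 1.17 at 21 dpi.

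Between the sorts, mesenchymal-like cells differed at 3 of 6 members in uninjured tendon, where 10.1% of 10768 genes were past the fold. Heyl, 1 of the 3, was over the minimum through the Gli1- library alone, so that the filter bore on its place in this count. Hes1 was higher in Gli1+ cells, 242 against 89.3 CPM, a log2 ratio of 1.44 (1.37 to 1.5), and Notch3 (5.45 against 17.5 CPM, −1.69) and Heyl (4.89 against 17.5 CPM, −1.84) were lower. The sorts differed in makeup, since the mesenchymal-like clusters other than stem cell-like and tenocyte-like ones held 277 Gli1+ but 4568 Gli1- cells in uninjured tendon. Heyl was at 6.45 against 22.2 CPM in these, but at 4.05 against 3.52 CPM in tendon stem cell-like and 6.78 against 6.99 CPM in tenocyte-like cells, where the count intervals overlapped. Notch3, in the same order of subtypes, was at 11.9 against 19.1, 4.05 against 11.4 and 4.01 against 15.6 CPM, with overlapping intervals in the first. Hes1 was at 239 against 84.3, 232 against 93.1 and 257 against 138 CPM, so these 2 genes differed the same way in each subtype. Xist differed between the same pair of libraries (424 against 0.0373 CPM), and the part of the sex of the cells was not tested. At 7 dpi 0 of 5 members were past it, where 1.44% of 10522 genes were, and the Hes1 ratio was 0.20 and that of Notch3 −0.78. At 21 dpi 1 of 5 was, where 0.582% of 10308 genes were, and this was Notch3 at −1.04 (−1.21 to −0.86), with Hes1 at 0.24. Notch3 was not past it with the 6 libraries clustered together, with types from markers of single cells, under TMM scaling or with the mean of single cells. Over all mesenchymal-like cells Notch3 was thus lower in the Gli1+ sort at each of the 3 times. By subtype at 7 dpi it was at 7.67 against 13.6 CPM in the other mesenchymal-like clusters. In tendon stem cell-like (7.89 against 4.96 CPM) and tenocyte-like cells (8.88 against 10.6 CPM) the intervals overlapped. At 21 dpi it was lower in Gli1+ cells of each subtype, with overlapping intervals in tendon stem cell-like and chondrocyte- or bone-like cells. Over all mesenchymal-like cells the mural markers were also lower, at 190, 252, then 283 CPM for Gli1+ against 285, 277, then 310 CPM for Gli1-. So were the blood endothelial markers, at 38.4, 20.4, then 16.0 CPM against 197, 67.4, then 64.6 CPM. Their part in the result was not tested. The other pathway genes gave 0 higher and 1 lower of 33 in uninjured tendon and none past the fold of 31 at either later time. Whole libraries hid the uninjured difference of Hes1, at 140, 40.5 and 129 CPM for Gli1+ and 128, 39.6 and 125 CPM for Gli1-.

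Genes with levels most like those of each member over 32 pairs of type and library were ranked among 11818 genes by Pearson's r of log2(CPM + 1), as a description, since the points share libraries and types. Dll4 was closest to Rasip1 (r = 0.98), Gata2 and Sox18, Notch4 to Sox17 (0.96), Vwf and Scarb1, and Hey1 to Cavin2 (0.94), Timp4 and Rasgrf2. Heyl was closest to Gucy1a2 (0.93), Lin7a and Nrip2 and Notch3 to Slc2a4 (0.92), Ano1 and Or51e1. The widely spread members had weaker matches, Jag1 with Ajuba (0.89) and Timm17a, Notch1 with Purb (0.88), Shoc2 and Map3k11, and Jag2 with Chek2 (0.87), Slc30a1 and Itga3. Hes1 was closest to Epn2 (0.87), Zcchc14 and Mtus1, and Notch2 to Trps1 (0.71), Ccdc171 and Ifrd1.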

How the data were processed

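Single-cell 3′ RNA sequencing was done on 6 libraries, Gli1+ and Gli1- cells of uninjured, 7 dpi and 21 dpi tendon. The deposited values are counts, the UMIs per gene and barcode that the authors obtained with Cell Ranger. The submitters' processing notes name Cell Ranger 3.1.0, STAR and mm10, whereas the matrix headers name Cell Ranger 9.0.0, and the files hold no coordinates. No barcode held under 500 UMIs.

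Cells with at least 200 genes, 1000 UMIs, a log10 ratio of genes to UMIs of 0.7 and at most 5% mitochondrial or hemoglobin UMIs were kept, as in the study's methods. DoubletFinder was not used here. In its place the cells with the top Scrublet scores (scanpy 1.11.5) were removed, at a rate of 0.8% per 1000 cells. Each sort was clustered by itself (2000 variable genes, 30 principal components, 20 neighbours, Leiden resolution 0.5, igraph 0.11.9), and clusters were named from fixed marker lists. Counts were summed by type and library. Each sum has an exact 95% Poisson interval, and each ratio between libraries has an exact 95% binomial interval, both for counting error only. Types were compared with edgeR 4.0.16 in R 4.3.3 (quasi-likelihood, TMM, adjusted p under 0.05), with DESeq2 1.42.0 as an alternative. The scripts were tested on simulated data.

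Other pathway genes were named if past a log2 ratio of 1 the same way in both sorts, or if among the 3 largest called fold changes of a type, and the 3 most alike genes were named per member (with r for the first, and except a gene that is not reported here). The members, gene lists and tests were chosen with earlier results of these data known.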

Additional observations from a re-analysis of the deposited data

Results flagged for a closer look

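Over all mesenchymal-like cells, Hes1 and Notch3 moved in opposite directions in the sorts, by intervals that did not reach 0. In mesenchymal-like cells at 21 dpi, the log2 ratio of Hes1 over uninjured tendon was −1.03 (−1.08 to −0.98) in the Gli1+ and 0.17 (0.11 to 0.23) in the Gli1- sort. The levels at 21 dpi were close, 118 and 100 CPM, and the uninjured levels were 242 and 89.3 CPM. Within subtypes no Gli1- interval of Hes1 lay above 0 at 21 dpi, with ratios of −0.26 (−0.44 to −0.07) in tenocyte-like cells, −0.52 (−0.62 to −0.42) in the other mesenchymal-like clusters and 0.05 (−0.38 to 0.45) in tendon stem cell-like cells. At 7 dpi, the log2 ratio of Notch3 was 0.51 (0.23 to 0.80) in the Gli1+ and −0.39 (−0.53 to −0.26) in the Gli1- sort, from 5.45 and 17.5 CPM in uninjured tendon. By subtype, the Gli1+ ratio of Notch3 was 0.96 (0.51 to 1.43) in tendon stem cell-like and 1.15 (0.38 to 1.94) in tenocyte-like cells but −0.64 (−1.23 to 0.02) in the other mesenchymal-like clusters, which held 4063 of the Gli1+ cells at 7 dpi. Mural markers in mesenchymal-like cells summed to 190 and 252 CPM in uninjured tendon and at 7 dpi in the Gli1+ sort and to 285 and 277 CPM in the Gli1- sort, and their part in the result was not tested. Each sort had 1 library per time, so neither difference was tested, and the intervals cover counting error only.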

How the results depend on the processing

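Counts of members past the fold depended on its definition and on the filter. In mesenchymal-like cells the count at 7 dpi in the Gli1+ sort (1) became 2 under TMM and without a filter and 3 with the limit of 0.58, and at 21 dpi (1) it became 0 with types from markers of single cells, under TMM and with the mean of single cells, 2 without a filter and 3 with 0.58. In the Gli1- sort the count at 7 dpi (2) became 4 without a filter, 4 with 0.58 and 3 with cells thinned to 2000 UMIs, and at 21 dpi (2) 1 with single-cell markers, 5 without a filter and 3 both with 0.58 and with the 6 libraries clustered together. Between the sorts, without a filter, the count became 6 (from 3) in uninjured tendon, 2 (from 0) at 7 dpi and 2 (from 1) at 21 dpi. With 0.58 it was 1 at 7 dpi, and at 21 dpi it was 0 with the 6 libraries clustered together, with single-cell markers, under TMM and with the mean of single cells. Of 380 ratios under these alternatives, 304 moved by less than the interval, 76 moved by more, and no called value changed sign.

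Between types the block was the pool of mice of a time point, although the uninjured sorts did not hold the same mix of mice. Without the replicate block, mural-like cells kept 5 of 9 calls and lymphatic endothelial-like cells 3 of 5. The count for mural-like cells ranged from 4 to 9 and that for basal epidermal-like cells from 0 to 4 (from 5) when 1 pool was left out, and the latter was 3 with doublets kept. Of 347 called fold changes under all alternatives, 319 still passed and 28 did not. Leaving out a pool gave no test for lymphatic endothelial-like and suprabasal epidermal-like cells, which had 2 pools, and lymphatic endothelial-like and Schwann-like cells could not be had with single-cell markers. The mural fit without the cluster carrying endothelial markers and the fit without the Gli1+ uninjured library were chosen after seeing the data. The ratios between libraries were not tested, and the sorts were not compared as pairs by time. Levels of rare members were limited by depth, since Dll4 had 5 UMIs in Gli1+ uninjured mesenchymal-like cells.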

Other observations

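Several clusters outside the named types carried Notch transcripts. Unnamed clusters with markers of skeletal muscle held Notch3 at 53.6 to 175 CPM and Heyl at 24.4 to 164 CPM in the Gli1+ sort (cluster 22), and Notch3 at 121 to 199 CPM and Heyl at 55.7 to 104 CPM in the Gli1- sort (cluster 19), against at most 17.5 CPM of either gene over all mesenchymal-like cells of a library. Heyl in mesenchymal cluster 4 of the Gli1- sort reached 27.8 CPM and so overlapped with the first of these. A shallow unnamed cluster of the Gli1- sort (cluster 7) held Notch1 at 178 to 256 CPM, Dll4 at 73.8 to 113 CPM and Jag1 at 64.6 to 78.1 CPM.

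A small mesenchymal-like cluster of the Gli1+ sort (cluster 25), led by Luzp2, Gatm, Itih5, Abcb1a and Slc2a1, had Hes1 at 330 CPM at 7 dpi and 479 CPM at 21 dpi, above the 39.3 and 118 CPM of all mesenchymal-like cells of those libraries. Chondrocyte- or bone-like cells, seen at 21 dpi, had Hes1 at 107 CPM among Gli1+ and at 154 CPM among Gli1- cells. Notch2 was higher in Gli1- tendon stem cell-like cells, at 246, 209, then 204 CPM (uninjured, 7 dpi, 21 dpi), than the 119, 75.2, then 89.2 CPM of all Gli1- mesenchymal-like cells. These clusters were picked after their values were seen.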
